A study of Mus musculus with 2 samples.

Results

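The spinal interneuron transcription factors are 9 genes, Pax2, Lbx1, Lhx1, Lhx5, Lmx1b, Tlx3, En1, Evx1 and Gata3, chosen by name as factors that mark dorsal and ventral classes of spinal interneurons. They are 9 of the 51826 genes listed for whole spinal cord, and their gene identifiers hold 22 of the 128622 listed transcripts. The animals were C57BL/6 mice of postnatal day 7, and whole spinal cord RNA was sequenced as 1 library per group. The groups were wild-type mice (WT) and mice of genotype Olig1-Cre;Secisbp2l-floxed(Ex3), here cKO, in which a Secisbp2l allele floxed at exon 3 was combined with a Cre recombinase named for Olig1. Olig1 is active in the oligodendrocyte lineage. The product of Secisbp2l is related to the SECIS-binding protein used in selenoprotein synthesis. How many animals each library pools is not stated in the labels. No difference below therefore has a replicate check, and no p-value is given. Intervals cover counting error only.

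Spinal interneurons arise in the embryo from ordered domains of the neural tube, and each class is named by the transcription factors it switches on as it leaves the cell cycle. Most of the 9 factors are homeodomain proteins, which bind DNA through a helix set into its major groove. Pax2 is a paired-domain protein and Gata3 a zinc finger protein. In the dorsal cord, Lbx1 marks the late-born neurons of the dorsal horn, Pax2, Lhx1 and Lhx5 mark inhibitory neurons, and Tlx3 and Lmx1b mark excitatory ones. In the ventral cord, En1 marks an inhibitory class that includes Renshaw cells, Gata3 an inhibitory class called V2b, and Evx1 an excitatory commissural class. Pax2, Lhx1 and Lhx5 are also found in ventral inhibitory neurons.

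The 7 homeodomain members were compared in the coding sequence of their recognition helix, because related genes of this kind can share reads. A 60-base stretch of the most abundant transcript of each, read from GENCODE M21, is shown in the order dorsal then ventral, 5′ to 3′ on the coding strand. Capitals mark the 6 codons that encode the signature tryptophan, phenylalanine, any, asparagine, any, arginine, with 7 codons on each side.
Lbx1: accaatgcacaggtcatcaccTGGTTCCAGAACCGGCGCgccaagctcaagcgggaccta
Lhx1: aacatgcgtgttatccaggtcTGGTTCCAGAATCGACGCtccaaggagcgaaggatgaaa
Lhx5: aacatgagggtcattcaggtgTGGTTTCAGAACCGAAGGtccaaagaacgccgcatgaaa
Lmx1b: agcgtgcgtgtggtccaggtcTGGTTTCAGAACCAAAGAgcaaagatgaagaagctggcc
Tlx3: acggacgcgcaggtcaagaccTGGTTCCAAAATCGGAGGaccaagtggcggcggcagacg
En1: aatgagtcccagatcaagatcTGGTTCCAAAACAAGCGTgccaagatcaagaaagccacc
Evx1: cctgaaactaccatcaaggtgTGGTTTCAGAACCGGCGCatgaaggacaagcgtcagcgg

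In GRCm38 the Lbx1 stretch lies at chr19:45234031-45234090 on the minus strand, within exon 2 of 2, and the En1 stretch at chr1:120607037-120607096 on the plus strand, also within exon 2 of 2. The other stretches join neighbouring exons. The Lhx1 stretch runs from exon 3 to exon 4 between 84521708 and 84520408 on chromosome 11, and the Lhx5 stretch from exon 3 to exon 4 between 120435611 and 120436349 on chromosome 5. Lhx5 matched Lhx1 at 46 of the 60 bases, the closest of the members, and Lmx1b, the other LIM homeodomain gene, matched at 39. Tlx3 matched Lhx1 at 32 bases, Lbx1 and Evx1 at 30 each and En1 at 29.

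Over whole transcripts the longest identical run between Lhx1-201 and Lhx5-201 was 20 bases, cacctcaactgcttcacctg in the coding sequence of exon 2, at chr11:84522187-84522206. The longest runs between a member and any other paralogue examined were 32 bases. One was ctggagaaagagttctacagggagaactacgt, shared by Evx1 and Evx2, at chr6:52315902-52315933. The other was shared by Tlx3 and Tlx2, and Tlx2 had 0 counts in both libraries. The remaining pairs shared between 17 and 31 bases.

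Estimated counts totalled 42875143 in WT and 55179026 in cKO, and 1 sequenced fragment corresponds to about 2 of them. In the 16 listed oligodendrocyte and myelin genes the summed TPM (a level scaled by transcript length and library total) was 16777 in WT and 8787 in cKO. The 18 general neuron genes had summed TPM of 9312 and 10562. The libraries also differed in sex-linked RNA: Xist had 35182 counts in WT and 13 in cKO, and 4 Y-linked genes (Uty, Kdm5d, Ddx3y and Eif2s3y) had 0 in WT and 1081 to 4280 in cKO. None of the 9 factors lies on a sex chromosome. For Secisbp2l the log2 of cKO over WT was -0.34 (-0.37 to -0.30), and whole-transcript estimates do not check the deletion of exon 3. Brain regions beside the cord express some of the factors. Of 12 brainstem and midbrain genes 5 were measured, with 0 past the size rule introduced below and summed TPM of 21.7 in WT and 19.5 in cKO. Of 8 cerebellum genes found 6 were measured, also with 0 past the rule among those, and the sums were 188.7 and 204.8. Cbln1, Zic1 and Calb1, the most abundant of the latter, had log2 ratios of 0.22, -0.17 and 0.03. Pcp2, a cerebellum gene too scarce to be measured, had 13 counts in WT and 43 in cKO. Its log2 ratio was 1.36 (0.05 to 2.89), past the limits of the rule. The spinal cord also expresses several genes of both lists. Fev and Gabra6, picked with their values in view, had 0 counts in both libraries. The part of such tissue in the levels of the factors was not tested. A count of 0 allows up to 3 fragments, or 0.14 CPM (counts per 1000000 counts) in WT and 0.11 CPM in cKO.

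All 9 factors were detected in both libraries and reached the minimum of 1 CPM on the mean of the libraries that was set for a measured gene. Their share of all counts was 0.0193% for WT and 0.0221% for cKO, on 8285 and 12214 counts. The 6 factors known best from the dorsal horn stood well above the 3 ventral ones. In WT the deposited TPM fell from 35.2 for Lbx1 to 13.5 for Lhx5 among the dorsal factors, and from 1.55 for En1 to 0.603 for Evx1 among the ventral ones. In cKO the ranges were 39.3 to 15.9 and 2.31 to 1.14. The same order of genes held in both libraries.

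**Figure D1:**
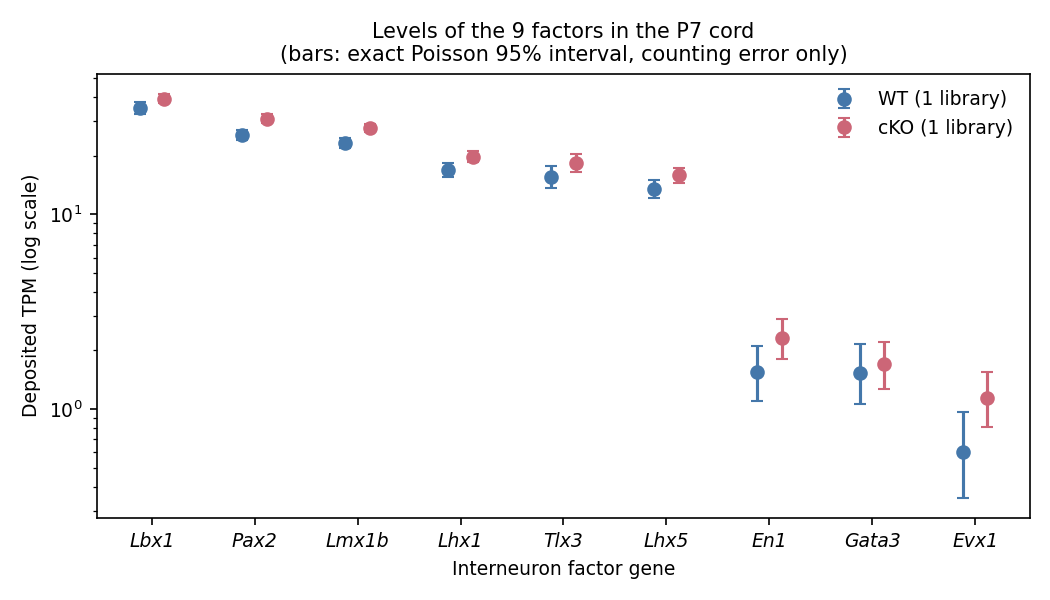
Deposited TPM (log scale) of the 9 interneuron factors, ordered by the WT level, with 1 point per library and exact Poisson 95% intervals for counting error. Lbx1 stands highest, at 35.2 TPM in WT and 39.3 in cKO, and a gap separates Lhx5 (13.5 and 15.9) from En1 (1.55 and 2.31).

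Several neighbours in that order could not be separated by counting error. In WT the intervals of Pax2 (25.5 TPM) and Lmx1b (23.3 TPM) overlapped, as did those of Lhx1 (16.9 TPM) and Tlx3 (15.5 TPM), of Tlx3 and Lhx5, and of En1 and Gata3 (1.54 TPM). Lbx1 stood clear of Pax2 in both libraries, and Lhx5 stood clear of En1 in both. In cKO, Pax2 (31.0 TPM) was clear of Lmx1b (27.7 TPM), while Gata3 (1.70 TPM) and Evx1 overlapped. Level per length therefore divides the factors into an abundant dorsal set and a scarce ventral set, and these intervals resolve the order inside each set only in part.

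Set against WT, the cKO library had a higher level of every factor, by small amounts. All 9 had a log2 ratio of cKO over WT above 0 on counts scaled by TMM library sizes, where 52.3% of the 15917 measured genes did. The median of the 9 was 0.23, against 0.01 for all measured genes, whose quartiles were -0.14 and 0.15. The lowest ratio was that of Lbx1 (0.13) and the highest that of Evx1 (0.85). En1, Evx1 and Gata3 lie at 1 to 3 CPM, where the quartiles of measured genes were wider, at -0.31 and 0.31. For 4 of the 9 the exact 95% interval lay wholly above 0, as it did for 21.9% of measured genes. The size rule used here asks for a difference of 1.5-fold or more whose interval excludes equality. It was met by 1 of the 9 in the higher direction, against 2.46% of measured genes, and by 0 in the lower direction, against 3.42%.

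**Figure D2:**
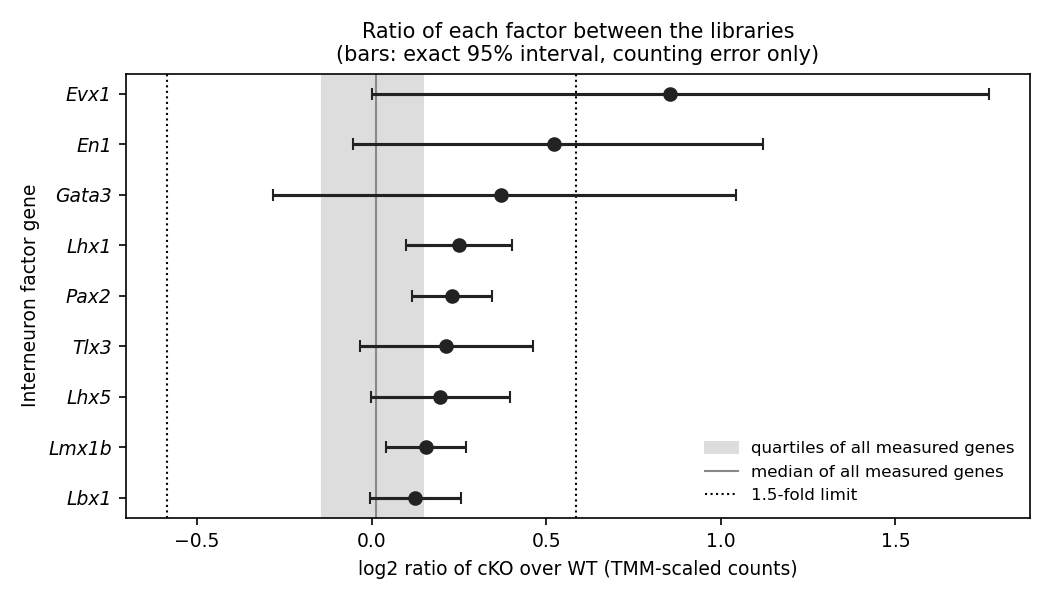
The log2 ratio of cKO over WT for each factor, with exact 95% intervals for counting error, the quartiles of all measured genes (grey band, -0.14 to 0.15) and the 1.5-fold limit (dotted lines). Every point lies above 0, the 6 dorsal factors lie between 0.13 and 0.25, and the intervals of the 3 ventral factors are wide. Those 3 lie at 1 to 3 CPM, where the quartiles of measured genes, not drawn, were -0.31 and 0.31.

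Lbx1, which specifies the late-born dorsal horn neurons of both transmitter types, spans 45232684 to 45235812 of chromosome 19, minus strand. It had 1677 counts in WT and 2351 in cKO, or 39.1 and 42.6 CPM. The log2 ratio was 0.13 (-0.004 to 0.25), the smallest of the 9 and one whose interval just reaches equality. Lbx1 was also the member that reversed when ratios were taken relative to the summed general neuron genes, at -0.000698.

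Pax2, needed for the inhibitory fate of dorsal horn neurons, spans 44756045 to 44837871 of the same chromosome, plus strand, less than a megabase away. It had 2028 counts in WT and 3057 in cKO, or 47.3 and 55.4 CPM, and a log2 ratio of 0.23 (0.11 to 0.35). That is 17.3% higher in cKO, with an interval of 1.08-fold to 1.27-fold. Of measured genes, 84.8% had a lower ratio.

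Lhx1 and Lhx5, LIM homeodomain genes that act together to maintain Pax2 and inhibitory identity in the dorsal horn, differed between the libraries by near-equal amounts. Lhx1 (chromosome 11, minus strand, 84518284 to 84525535) had 1174 counts in WT and 1795 in cKO, with a log2 ratio of 0.25 (0.10 to 0.40). Lhx5 (chromosome 5, plus strand, 120431699 to 120441223) had 697 counts in WT and 1027 in cKO, with a log2 ratio of 0.20 (-0.002 to 0.40). Their ratios differed by 0.05 (normal-approximation interval -0.19 to 0.30). The level of Lhx1 over Lhx5 in TPM was 1.253 in WT and 1.246 in cKO.

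Lmx1b and Tlx3, homeodomain genes of excitatory dorsal horn neurons, were likewise close to each other. Lmx1b (chromosome 2, minus strand, 33560965 to 33640511) had 2074 counts in WT and 2970 in cKO, with a log2 ratio of 0.16 (0.04 to 0.27). Tlx3, which selects the glutamatergic over the GABAergic fate and spans 33200752 to 33203589 of chromosome 11 on the minus strand, had 457 counts in WT and 681 in cKO, with a log2 ratio of 0.21 (-0.03 to 0.46). The ratios differed by -0.06 (-0.32 to 0.21), and Lmx1b stood at 1.501 times the TPM of Tlx3 in WT and 1.502 times in cKO. Sensory ganglion neurons also express Tlx3. Of 11 sensory ganglion genes found, 3 were measured, with 0 past the size rule, and the summed TPM of the list was 68.1 in WT and 66.9 in cKO.

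En1 (chromosome 1, plus strand, 120602418 to 120607992) had 79 counts in WT and 146 in cKO, or 1.84 and 2.65 CPM. Its log2 ratio was 0.52 (-0.05 to 1.12), short of the 1.5-fold limit and with an interval that includes equality. Gata3 (chromosome 2, minus strand, 9857078 to 9890034) had 65 counts in WT and 108 in cKO, with a log2 ratio of 0.37 (-0.28 to 1.05). Gata3 is also a gene of T lymphocytes, and of the markers listed for such sources Cd3g had 0 counts in both libraries and Cd3e had 2 counts, in WT. Il2ra, Cd4 and Il7r of the same list had counts in both, at 19, 13 and 6 in WT and 19, 17 and 7 in cKO. The whole list of 10 had summed TPM of 3.28 in WT and 2.74 in cKO, with 1 gene measured.

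Evx1, which sets the commissural fate of an excitatory ventral class, was the 1 member past the size rule, on the fewest counts. It spans 52313498 to 52318378 of chromosome 6, plus strand, and had 34 counts in WT and 79 in cKO, which is 17 and 39.5 fragments. The log2 ratio was 0.85 with an interval of 0.0006 to 1.77, so the lower bound lies almost at equality. The call was lost under several other settings, among them totals without a scaling factor (-0.001 to 1.77) and deposited TPM with a pseudocount of 1 (0.42). Among measured genes of 1 to 3 CPM, the range that holds En1, Evx1 and Gata3, 6.91% were higher by the rule.

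Evx1 also shares 81 exonic bases with Evx1os, an antisense RNA on the other strand, and the strand setting of the library is not given in the sources used here. Evx1os went the other way, on 20 WT and 11 cKO counts, at a log2 ratio of -1.22 (-3.04 to 0.42). Summed over both genes the locus had 54 and 90 counts and a ratio of 0.37 (-0.34 to 1.12). Without the strand, reads of the shared bases cannot be told apart between Evx1 and Evx1os.

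Summed by position, the 6 dorsal factors had 8107 counts in WT and 11881 in cKO, a log2 ratio of 0.19 (0.13 to 0.25). The 3 ventral factors had 178 and 333 counts, a ratio of 0.54 (0.16 to 0.93), or 0.46 (0.03 to 0.89) without Evx1. The intervals of the dorsal and ventral sums overlap. Summed by transmitter, the 5 factors of inhibitory classes (Pax2, Lhx1, Lhx5, En1 and Gata3) had a ratio of 0.24 (0.16 to 0.32) and the 3 of excitatory classes (Lmx1b, Tlx3 and Evx1) one of 0.18 (0.07 to 0.28). These intervals overlap as well, and each holds the ratio of the other sum, so counting error does not separate inhibitory from excitatory factors. In RNA from whole cord, more cells of a class and more RNA per cell cannot be told apart.

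Most factors were represented by a single main transcript in both libraries. Lbx1, Lhx5, Tlx3 and En1 have 1 listed transcript each, and Evx1 had counts on 1 of 2. The share of Pax2 counts on Pax2-203 was 93.1% for WT (91.4% to 94.5%, Wilson) and 91.8% for cKO (90.3% to 93.0%). Lhx1-201 held 98.1% (96.7% to 98.95%) and 99.2% (98.4% to 99.6%), and Lmx1b-201 held 98.5% (97.6% to 99.1%) and 97.1% (96.2% to 97.9%). The intervals of the libraries overlapped for each of these transcripts. Lmx1b-203, a minor transcript chosen after its values were seen, had 30 counts in WT and 80 in cKO, or 1.45% and 2.69% of the gene, and a log2 ratio of 1.05 (0.17 to 2.02). Only 1.48% of its length is not shared with other Lmx1b transcripts.

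For Gata3 the shares rest on few counts. Gata3-201, the full coding transcript of 6 exons, held 86.2% of 65 counts in WT (70.5% to 94.2%) and 97.2% of 108 counts in cKO (88.8% to 99.4%), intervals that overlap. The rest of the WT counts, 9 of them, lay on the noncoding Gata3-206, which had 0 in cKO. By TPM the share of Gata3-201 was 58.4% in WT and 79.4% in cKO, since TPM weights short transcripts more. On Gata3-201 alone the log2 ratio was 0.54 (-0.14 to 1.26).

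Lhx1 begins back to back with the noncoding RNA Lhx1os, whose first base lies 125 bp away on the opposite strand. The 124 bases between their starts, chr11:84525536-84525659 in GRCm38 from RefSeq, are shown on the Lhx1 strand because both RNAs are made outward from them. Capitals mark the 1 match to CCAAT on either strand (here ATTGG), a motif held by 33.8% of 32851 windows of 250 bases before a start site.
Lhx1 to Lhx1os: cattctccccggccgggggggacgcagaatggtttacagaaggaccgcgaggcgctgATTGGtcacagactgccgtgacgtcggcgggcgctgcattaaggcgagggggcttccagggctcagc
Lhx1os had 402 counts in WT and 583 in cKO, at a log2 ratio of 0.17 (-0.09 to 0.44), an interval that holds the 0.25 of Lhx1. RefSeq windows of this length were found for 7 of the 9 factors, at 9 start sites. The homeodomain core TAATTA, present in 4.84% of all windows, was in 0 of these 9, and CCAAT was in 4.

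Other factors of interneurons were compared as lists. Of 25 other factors of inhibitory classes, 22 were measured, 17 of these lay above 0, 1 was higher by the size rule and 0 lower, and the median log2 ratio was 0.13. The most abundant by TPM were Nfib (0.10), Sall3 (0.18) and Dbx2 (-0.02), which are also expressed in glia or progenitors. Foxp2 and Tal1, markers of the En1 and Gata3 classes that were picked with their values in view, lay at 0.08 and -0.10, with intervals that include 0.

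Of 29 other factors of excitatory classes, 26 were measured and 19 lay above 0, with a median of 0.11. By the size rule 2 were higher and 1 lower. Onecut1, a factor of several ventral neuron types, had 44 and 119 counts (1.07, interval 0.35 to 1.85). The lower gene was Nkx2-2 (-0.63, interval -0.77 to -0.49), a marker of V3 progenitors that is also a factor of the oligodendrocyte lineage. Ebf3, the most abundant of this list, was at -0.35 (-0.41 to -0.29), so the factors did not all differ in 1 direction.

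Close relatives of the members gave a mixed picture. Of 9 paralogues 5 were measured, 3 of them above 0, and the median was 0.27. Pax8, which is co-expressed with Pax2 in dorsal inhibitory neurons, had 708 counts in WT and 1110 in cKO, a ratio of 0.29 (0.09 to 0.48). Pax5 was higher by the size rule on 70 and 142 counts (0.66, interval 0.05 to 1.29). Evx2, the neighbour of the HoxD cluster that accompanies Evx1 in the same neurons, was at 0.27 (-0.25 to 0.80), and Gata2, which precedes Gata3, at -0.16 (-0.47 to 0.15). En2, chosen after its value was seen, was at -0.57 (-1.14 to -0.01), where En1 was at 0.52. Without the filter on low counts the median of 7 paralogues was -0.0086.

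Genes that act before the factors did not show the same shift. Of 17 progenitor factors of the neural tube 10 were measured, 5 above 0, with a median of 0.02. Nkx6-2, a ventral progenitor factor that oligodendrocytes also express, was lower by the size rule (-0.82, interval -1.03 to -0.61). Pax6, a factor of dorsal and intermediate progenitors, was at -0.02. The 20 cofactors of LIM, GATA and homeodomain proteins were all measured, 12 lay above 0, 0 met the size rule, and the median was 0.05. Ldb1, the partner through which LIM factors such as Lhx1 and Lmx1b assemble, was at -0.01 (-0.11 to 0.08).

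Genes of the transmitters that these factors select were higher by similar amounts. All 6 genes of inhibitory transmission lay above 0, with a median of 0.20 and 0 past the size rule. Slc32a1, the vesicular transporter of GABA and glycine, had 8349 counts in WT and 12400 in cKO, a ratio of 0.21 (0.15 to 0.27). Slc17a6, the main vesicular glutamate transporter of spinal excitatory neurons, was at 0.11 (0.06 to 0.15). Slc17a7 was higher by the rule on 105 and 208 counts (0.62, interval 0.13 to 1.13).

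**Figure D3:**
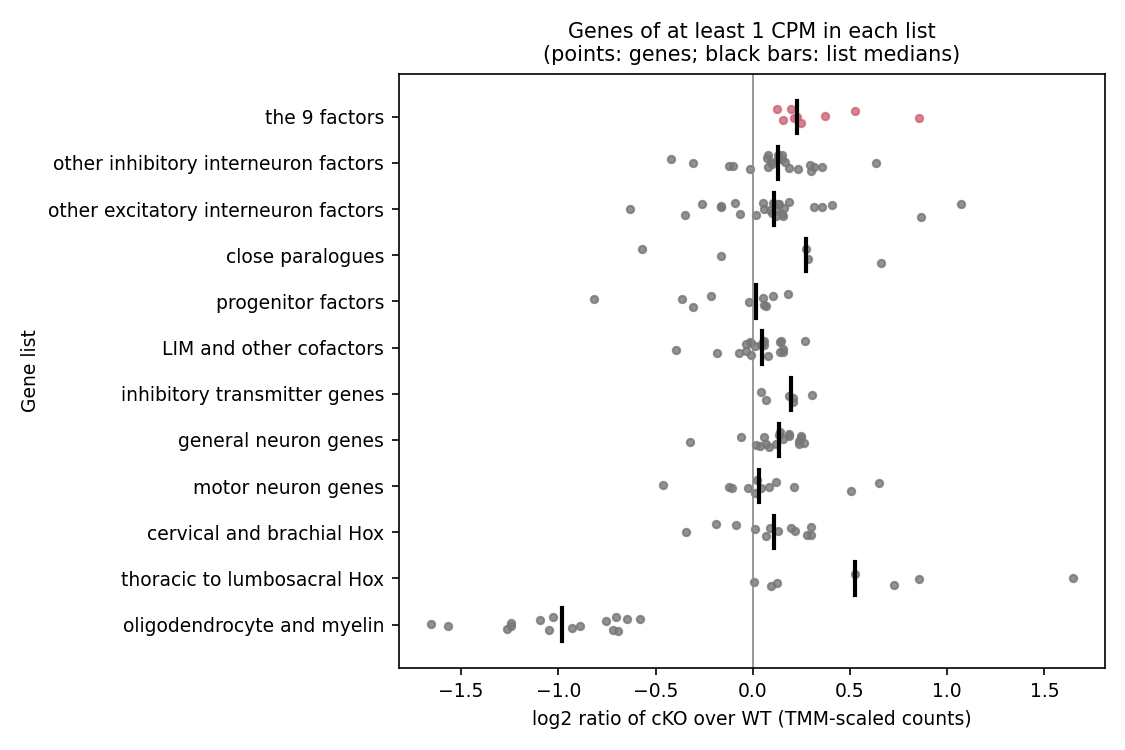
The log2 ratio of cKO over WT for every gene of at least 1 CPM in each list (points), with list medians (black bars). The 9 factors have a median of 0.23, the inhibitory transmitter genes 0.20 and the general neuron genes 0.14, while the oligodendrocyte and myelin genes lie below 0 with a median of -0.98.

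Most genes of neurons in general also lay above equality. Of 18 general neuron genes 16 lay above 0, with a median of 0.14 and 0 past the size rule. The most abundant by TPM were Nefl (0.13), Tubb3, a neuronal tubulin (0.25), and Stmn2 (0.12). Map2 (-0.32, interval -0.35 to -0.30) and Elavl3 (-0.06, interval -0.10 to -0.02), picked with their values in view, lay below 0. Relative to the summed counts of the 18 neuron genes, 8 of the 9 factors lay above 0, and the median of the factors was 0.10. On that scale the median of all measured genes was shifted to -0.11. Motor neuron genes had a median of 0.03, with 8 of 12 above 0 and 1 past the size rule, Isl2.

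Markers of position along the cord also differed. Of 15 thoracic to lumbosacral Hox genes 7 were measured, all 7 lay above 0, and 3 were higher by the size rule, Hoxd10 (1.65), Hoxc10 (0.85) and Hoxd9 (0.73). Their summed TPM was 281 in WT and 347 in cKO, with 7 and 6 genes at 0. The 12 cervical and brachial Hox genes had a median of 0.11 and 0 past the rule. Of 16 oligodendrocyte and myelin genes 15 were lower by the rule and 0 were above 0. When those genes were left out of the library totals the median of the 9 factors was 0.21. Genotype and sex-linked expression cannot be told apart in these libraries. The part of cord position and of the makeup of the tissue in the higher levels of the factors was not tested.

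**Figure D4:**
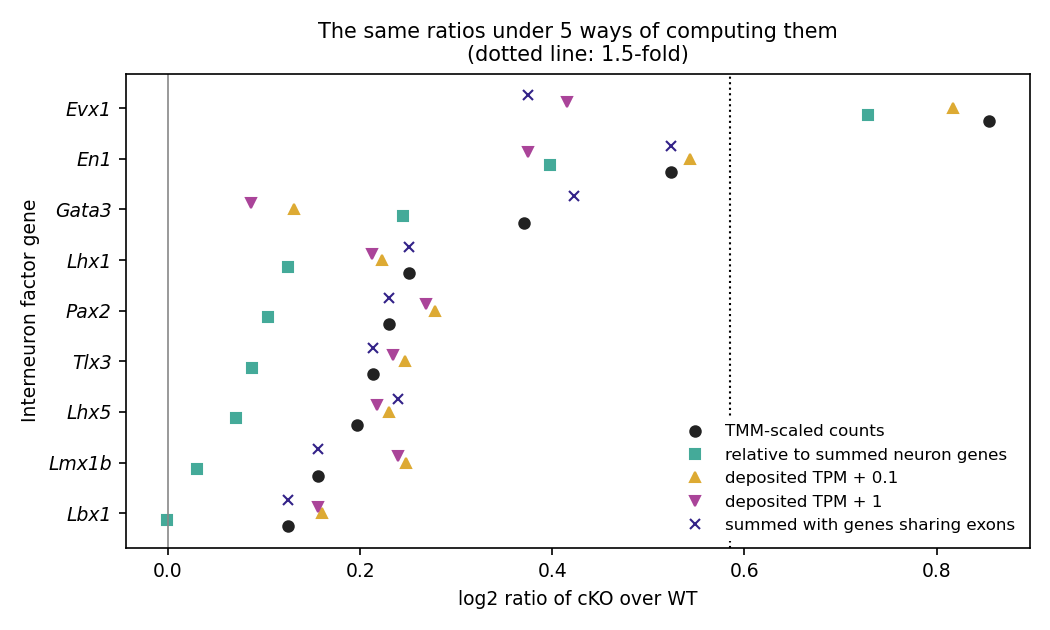
The log2 ratio of each factor computed in 5 ways: on TMM-scaled counts, relative to the summed general neuron genes, on deposited TPM with a pseudocount of 0.1 or 1, and with genes that share exons added. Ratios stay above 0 except Lbx1 relative to neuron genes (-0.000698), and Evx1 moves from 0.85 to 0.37 when summed with Evx1os.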

How the data were processed

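Spinal cord RNA of 1 WT and 1 cKO library was analysed from gene and transcript tables. The authors deposited estimated counts as whole numbers, with TPM and FPKM, per the file headers. CASAVA, Bowtie2 2.3.2 and GRCm38.p6 appear, per the submitters' processing notes, and the counter, annotation and strandedness were not given in the sources used here. In 98.9% of WT and cKO transcripts under 50 counts, the deposited count was a constant times FPKM times length rounded up, within 0.1. For genes with 1 transcript over 1000 nt and under 20 counts, that product lay within 0.2 of an even number in 41.2% of 3153 (WT) and 39.8% of 3106 (cKO), and of an odd number in 18.1% and 19.7%, so 1 fragment was taken as 2 counts. This was decided after the values were seen.

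Library sizes were scaled with TMM (edgeR 4.0.16, R 4.3.3; factors 1.0006 and 0.9994). Ratios have exact (Clopper-Pearson) 95% intervals on fragments (scipy 1.17.1, Python 3.11.15, numpy 2.4.6, pandas 2.3.3, matplotlib 3.10.9), levels Poisson intervals and shares Wilson intervals. Neither intervals nor floors cover more than counting error, as PCR copies of a molecule are not independent. No test was run, with 1 library per group. The size rule was checked on libraries simulated with only the counting error that its intervals assume. That check holds no variation between animals or libraries. Every factor, its transcripts of at least 10% of counts, and from each of the 24 lists the 3 genes of highest TPM and those past the rule were open to naming, and a few of these are not reported here. Other named list genes and the smaller transcripts were chosen after their values were seen. Those genes were Map2, Elavl3, Foxp2, Tal1, En2, Cd3e, Cd3g, Cd4, Il2ra, Il7r, Pcp2, Tlx2, Fev and Gabra6. Members and lists were chosen with earlier results of these data known. Listed genes not found under their symbols numbered 2. Gene structures came from GENCODE M21, whose coordinates of all 22 member transcripts matched the files, and windows before start sites from RefSeq (GRCm38.p6). Alternatives were median-of-ratios (DESeq2 1.42.0), upper quartile and unscaled totals, totals without myelin genes, scaling to neuron genes, deposited TPM or FPKM with pseudocounts of 0.1 or 1, other count filters, fold limits, transcripts and intervals.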

Additional observations from a re-analysis of the deposited data

How the results depend on the processing

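Each factor's ratio was recomputed under 11 alternatives, and 97 of the 99 values lay inside the interval first given. Some of these values equal the first ratio by construction, so the tally overstates the agreement. Taking intervals on counts as deposited changes no ratio. Using the main transcript alone, or adding genes that share exons, changes none for factors with 1 transcript or no shared exons. Scaling to the summed neuron genes put Pax2 (0.10) and Lmx1b (0.03) below theirs and reversed Lbx1 to -0.000698, inside its interval. That scaling took the median of the 9 factors from 0.23 to 0.10. The 1 factor past the size rule, Evx1, became 0 on unscaled totals, on totals without myelin genes, relative to neuron genes, on TPM with a pseudocount of 1, with a filter of 5 CPM (6 factors left), with a fold limit of 2, without the 3 factors that share exons, and when those were summed with the genes sharing their exons, an alternative chosen after seeing the data. Some of these losses were fixed in advance. The filter of 5 CPM and the removal of factors that share exons take out Evx1 itself. Its difference of 1.81-fold cannot meet a limit of 2. Scaling to neuron genes also reversed the medians of the other excitatory factors (-0.014), the progenitor factors (-0.107) and the cofactors (-0.078). Without a count filter the progenitor median was -0.21 and the paralogue median -0.0086. The causes were not tested. No paired analysis was possible because each group has 1 library, and leaving out a library could not be done for the same reason. Depth limits En1, Evx1 and Gata3, each with at most 146 counts in a library.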

Other observations

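Beside the factors lie other RNAs of the opposite strand that the comparisons above leave out. Gm27199, antisense to Lhx5 with 69 shared exonic bases, had 45 counts in WT and 99 in cKO, a log2 ratio of 0.78 (0.03 to 1.56). Summed with it, the Lhx5 locus was at 0.24 (0.05 to 0.43). C130021I20Rik, which begins 682 bp from Lmx1b, had 1389 and 1781 counts and a ratio of -0.004 (-0.15 to 0.14), below the 0.16 of Lmx1b. Gm12116, 466 bp from Tlx3, had 133 and 171 counts and a ratio of 0.0004 (-0.48 to 0.49). These neighbours are a part of those within 5000 bp and were chosen after the factors' values were seen. Others on the opposite strand had few counts. In WT and cKO, 1700039E22Rik at Pax2 had 8 and 14, Gm38011 at Lmx1b 0 and 7, and 4930412O13Rik at Gata3 0 and 4.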
